A study of Homo sapiens with 8 samples.

Results

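SNAI2 and the genes of the cadherin switch were followed in 2 human prostate cancer cell lines after acute Notch activation. The genes were SNAI2, TWIST1, ZEB1, CDH1, CDH2, VIM and FN1, and they were taken wherever the platform annotation gave a probe set 1 gene symbol equal to one of these names. The rule found all 7 genes, of 8226 named genes on the array, at 11 of 10943 probe sets with 1 symbol. The lines were LNCaP, derived from a lymph node metastasis and sensitive to androgens, and PC3, derived from a bone metastasis and independent of them. Cells of each line received activated Notch1, which needs no ligand to signal, or GFP (green fluorescent protein) as control. Total RNA was hybridized to Affymetrix U95Av2 arrays, which measure each transcript with a set of short oligonucleotide probes. There were 2 arrays in each of 4 groups (LNCaP Notch1, LNCaP GFP, PC3 Notch1 and PC3 GFP), 8 in all. The labels give no time after activation, and the sources used here do not give the vector used for the arrays or the share of cells it reached. The methods give 2 chips for each sample, so the p-values measure only the spread between arrays, which may be technical.

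Epithelial cells hold on to each other through E-cadherin (CDH1), whose cytoplasmic tail is tied to the actin cytoskeleton by catenins. In epithelial to mesenchymal transition, which embryos use to set cells free and carcinomas can reuse, transcription factors of the Snail, ZEB and Twist families bind E-box sequences and turn down CDH1, while N-cadherin (CDH2), vimentin (VIM) and fibronectin (FN1) go up. The exchange of CDH1 for CDH2 is the cadherin switch. SNAI2 (Slug) is a Snail family member that Notch signaling is known to induce in several cell types, including during heart cushion formation in the mouse embryo.

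Values are RMA expression levels on a log2 scale, as deposited by the authors, and changes are differences of log2 values. Array medians were 6.28 to 6.36 in LNCaP and 5.95 to 6.01 in PC3. Levels below log2 5, a floor set here because changes near the array background are uncertain and the values carry no detection call, held 31.9% to 33.0% of probe sets on LNCaP arrays and 36.6% to 37.6% on PC3 arrays. HES1, the classical Notch target, checked the labels. It read 11.22 and 11.23 in LNCaP Notch1 against 8.41 and 8.47 in LNCaP GFP, and 10.51 and 10.61 in PC3 Notch1 against 7.92 and 8.08 in PC3 GFP, a rise in both lines (adjusted p = 3.12e-07 and 4.22e-07). NOTCH1 and HEY1 were not analysed here. A probe set was called when its limma p-value, adjusted over all 12558 probe sets tested, was under 0.05.

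In LNCaP cells, activated Notch1 raised SNAI2 and FN1 and lowered CDH1 at 1 of its 2 probe sets. In PC3 cells it raised SNAI2 and, by a smaller margin that depended on the processing, ZEB1. The ZEB1 call was lost in 7 of 14 alternative settings, and its change was 0.05 with values under log2 5 raised to log2 5. The CDH1 call was lost in 3 of 15 settings, each leaving out 1 LNCaP array. In neither line did CDH2 or VIM pass the test. Of the 11 probe sets, 5 were called in LNCaP (4 higher, 1 lower), where 17.3% of all probe sets were called (8.01% higher and 9.32% lower). These 5 came from 3 of the 7 genes, since 3 were probe sets of FN1. The genes were chosen with earlier results of these data known. In PC3, 2 of 11 were called, both higher, where 6.20% of all probe sets were called (4.19% higher and 2.01% lower). The median change was 0.15 over the 11 probe sets in LNCaP and 0.04 in PC3, against 0.04 and -0.08 over all probe sets tested. SNAI2 also stands on the study's own list of tumor-promoting genes. That list crossed genes changed by Notch1 in these cell lines with genes that differed by Notch1 level in prostate tumor datasets. Its cell line part was drawn up with these samples, so the direction of SNAI2 here is not independent evidence.

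**Figure D1:**
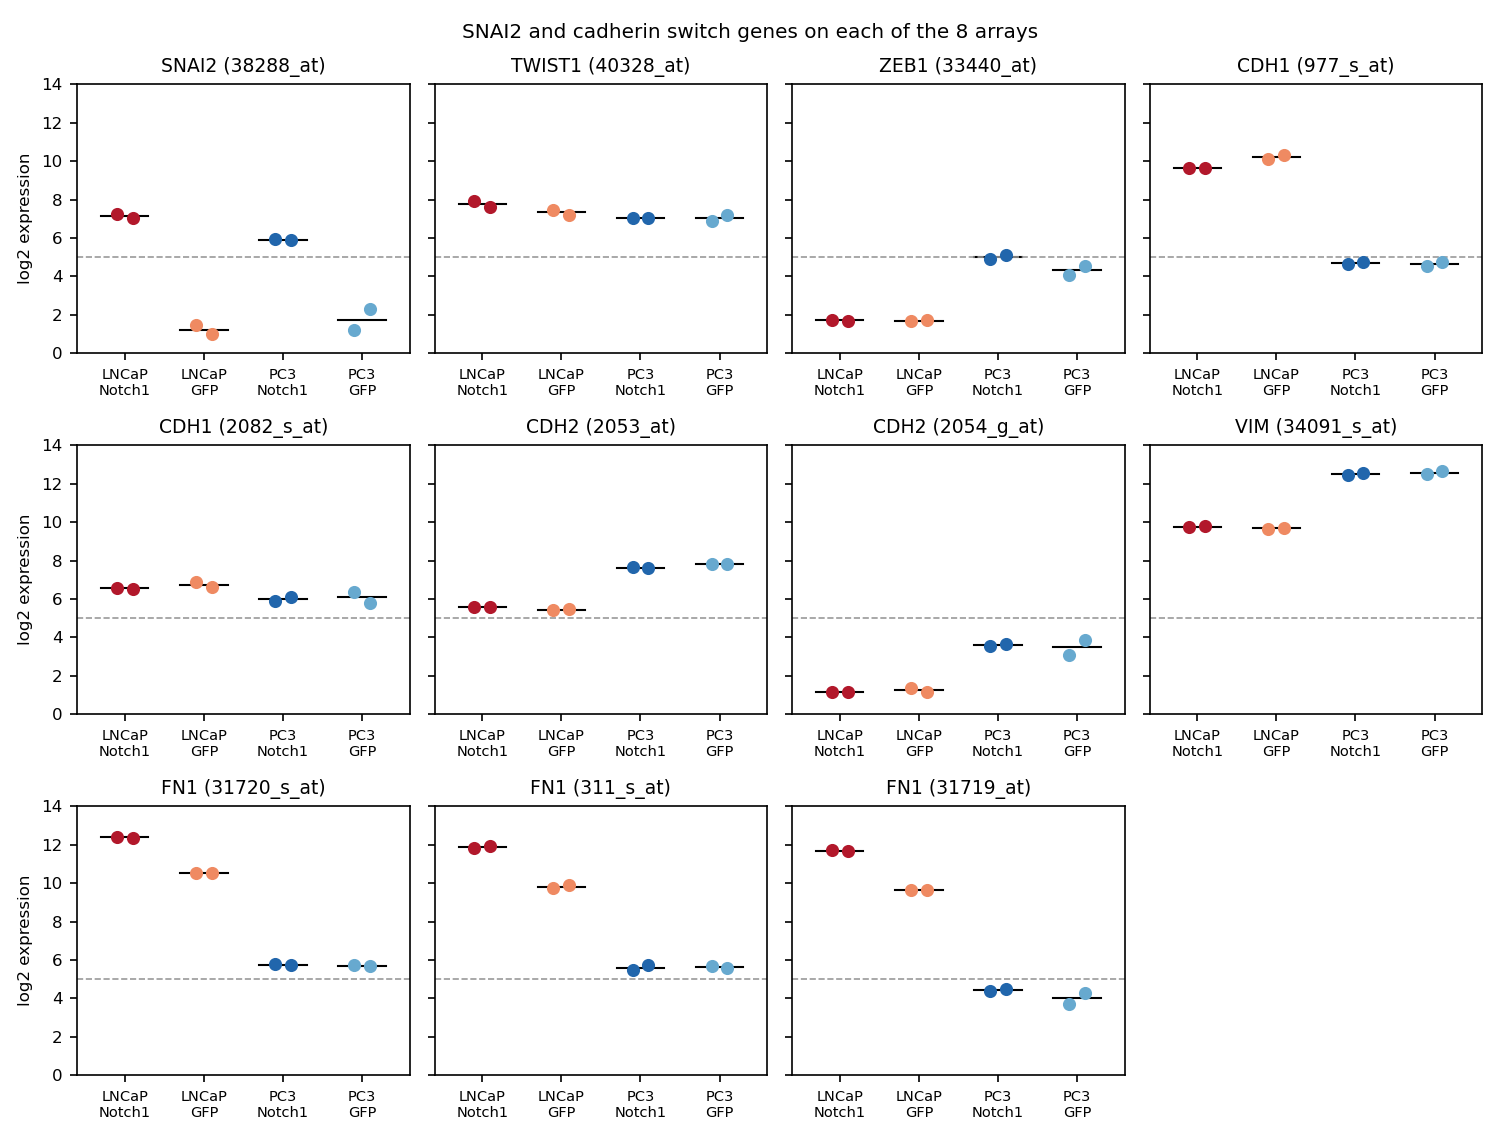
Log2 expression (y axis) of each of the 11 probe sets on the 8 arrays, with LNCaP Notch1, LNCaP GFP, PC3 Notch1 and PC3 GFP along the x axis, points for arrays, lines for group means (n = 2) and a dashed line at log2 5. SNAI2 lay between 5.88 and 7.25 on the 4 Notch1 arrays and between 0.98 and 2.30 on the 4 GFP arrays, and FN1 separated Notch1 from GFP in LNCaP at every probe set.

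SNAI2 (probe set 38288_at), the repressor that heads the group, read 7.25 and 7.02 in LNCaP Notch1 against 1.45 and 0.98 in LNCaP GFP. PC3 cells gave 5.95 and 5.88 with Notch1 against 1.18 and 2.30 with GFP. All 4 Notch1 arrays lay far above all 4 GFP arrays, and both GFP groups lay under log2 5. The fitted rise was 60.5-fold in LNCaP (log2 5.92, SE 0.29, adjusted p = 8.59e-07) and 18.0-fold in PC3 (log2 4.17, SE 0.29, adjusted p = 1.17e-05). These sizes rest on GFP values near the bottom of the scale. With every value under log2 5 raised to log2 5, the rise of SNAI2 was 2.13 in LNCaP and 0.91 in PC3 on the log2 scale, and both calls were kept (adjusted p = 0.000962 and 0.0181). The LNCaP effect on SNAI2 exceeded the PC3 effect by 1.75 (SE 0.41, 95% interval 0.83 to 2.66, adjusted p = 0.0192). That difference was not called when either Notch1 array of either line was left out (1.63 to 1.86, adjusted p = 0.0585 to 0.0821). In GFP cells SNAI2 was not called between the lines (LNCaP minus PC3 -0.53, 95% interval -1.17 to 0.12, adjusted p = 0.145). That comparison rested on the spread between the PC3 GFP arrays. The difference was -1.08 (adjusted p = 0.00066) without PC3 GFP replicate 1 and 0.03 when replicate 2 was dropped in its place, and it was called with median centring (-0.81, adjusted p = 0.0393).

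TWIST1 (40328_at), a basic helix-loop-helix factor of the mesoderm and neural crest, lay well above log2 5 on every array. It read 7.92 and 7.63 in LNCaP Notch1 against 7.44 and 7.22 in LNCaP GFP, and 7.05 and 7.05 in PC3 Notch1 against 6.88 and 7.19 in PC3 GFP. The LNCaP groups did not overlap, although the lowest Notch1 array stood only 0.19 above the highest GFP array. The LNCaP change of 0.45 missed the threshold (SE 0.15, 95% interval 0.12 to 0.78, adjusted p = 0.0677) and passed it when either PC3 GFP array was left out of the shared estimate of spread (adjusted p = 0.0386 for each). In PC3 the change of TWIST1 was 0.01 (95% interval -0.32 to 0.34, adjusted p = 0.971). The difference between the lines in the Notch1 effect was 0.44 (adjusted p = 0.184), and LNCaP GFP minus PC3 GFP was 0.29 (adjusted p = 0.122). That line difference was 0.44 without PC3 GFP replicate 2 (adjusted p = 0.0414), 0.13 without PC3 GFP replicate 1 and 0.00967 with median centring.

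ZEB1 (33440_at), a zinc finger repressor of CDH1 and of epithelial microRNAs, was near the bottom of the scale in LNCaP on all 4 arrays, at 1.73 and 1.69 with Notch1 against 1.66 and 1.71 with GFP. PC3 cells showed more ZEB1, at 4.91 and 5.10 with Notch1 against 4.06 and 4.56 with GFP. The PC3 groups did not overlap. The PC3 rise was 1.63-fold (log2 0.70, SE 0.16, adjusted p = 0.0302). It was not called in 7 of 14 alternative settings, among them the log2 5 floor (0.05, adjusted p = 0.598) and the fit to PC3 arrays alone (adjusted p = 0.078). Leaving out PC3 GFP replicate 1 gave 0.45 (adjusted p = 0.163), leaving out PC3 Notch1 replicate 1 or 2 gave 0.80 and 0.61 (adjusted p = 0.104 and 0.183), and leaving out either LNCaP Notch1 array gave an adjusted p of 0.0629. In LNCaP the change was 0.03 (95% interval -0.32 to 0.38, adjusted p = 0.937), and the Notch1 effects differed by -0.67 (adjusted p = 0.0742), a value called with median centring (-0.77, adjusted p = 0.0489). It was also called without PC3 GFP replicate 2 (-0.92, adjusted p = 0.00669), and was -0.42 without PC3 GFP replicate 1 and -0.05 with the floor. Among GFP cells, ZEB1 was lower in LNCaP by 6.18-fold (log2 -2.63, SE 0.16, adjusted p = 1.41e-07), a difference of 0 under the floor since 7 of the 8 arrays read under log2 5.

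ZEB1 has several annotated starts, and SNAI2 and ZEB1 are both E-box binding proteins, so the 1 ZEB1 window with 2 such boxes is shown. It covers the 250 bases before a start at chr10:31318966-31319215 on the plus strand (RefSeq, GRCh38.p14), with the E-boxes CACCTG, 242 bases before the start, and CAGGTG, 85 bases before it, in capitals. 
ZEB1: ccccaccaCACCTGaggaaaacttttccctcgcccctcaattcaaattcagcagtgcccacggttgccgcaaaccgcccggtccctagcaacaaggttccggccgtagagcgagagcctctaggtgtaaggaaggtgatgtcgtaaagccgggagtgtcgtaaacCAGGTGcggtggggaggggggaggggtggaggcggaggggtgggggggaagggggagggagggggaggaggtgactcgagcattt
Of 35116 RefSeq promoter windows of this length, 17.5% hold CAGGTG or its other strand CACCTG, so the match is a description and not a binding site. Among the other ZEB1 windows, the one at chr10:31318167-31318416 held 1 such box and the rest held 0. The window shown was picked for its boxes, whereas the 17.5% is a share of single windows. Promoter windows were found for ZEB1, FN1, VIM and CDH2, 4 of the 7 genes.

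CDH1, the E-cadherin gene, was measured by 2 probe sets that gave different results. At 977_s_at it read 9.66 and 9.65 in LNCaP Notch1 against 10.11 and 10.30 in LNCaP GFP, and 4.64 and 4.72 in PC3 Notch1 against 4.55 and 4.74 in PC3 GFP. Both LNCaP Notch1 arrays lay below both LNCaP GFP arrays, while the PC3 groups overlapped under log2 5. In LNCaP, E-cadherin signal fell 1.46-fold (log2 -0.55, SE 0.12, adjusted p = 0.0112). The PC3 change was 0.04 (95% interval -0.23 to 0.31, adjusted p = 0.865), and the effects of the lines differed by -0.59 (SE 0.17, adjusted p = 0.0486). Leaving out LNCaP GFP replicate 2 ended the call in LNCaP (-0.46, adjusted p = 0.106), as did leaving out either LNCaP Notch1 array (-0.55, adjusted p = 0.0602 and 0.0633). The difference between the lines was kept only when PC3 GFP replicate 2 was the array left out (adjusted p = 0.0267, against 0.0559 to 0.179 without any other).

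At 2082_s_at, CDH1 read 6.56 and 6.54 in LNCaP Notch1 against 6.86 and 6.62 in LNCaP GFP, and 5.88 and 6.10 in PC3 Notch1 against 6.39 and 5.78 in PC3 GFP. The LNCaP groups were separated by 0.06, and the PC3 groups overlapped. Neither change passed the test (-0.19 in LNCaP, 95% interval -0.60 to 0.22, adjusted p = 0.574, and -0.09 in PC3, adjusted p = 0.781). The fall of CDH1 in LNCaP therefore rests on 1 of 2 probe sets. Among GFP cells, CDH1 was higher in LNCaP at 977_s_at by 5.56 on the log2 scale (SE 0.12, adjusted p = 8.15e-11), or by 5.21 with the log2 5 floor. The same comparison gave 1.58-fold at 2082_s_at (log2 0.66, SE 0.19, adjusted p = 0.0105), a call lost in 5 of 15 settings, among them median centring, quantile normalization and leaving out LNCaP GFP replicate 1 or PC3 GFP replicate 2. Probe sets of the s_at type can pick up several related transcripts.

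CDH2, the N-cadherin gene, had the opposite distribution between the lines. At 2053_at it read 5.58 and 5.57 in LNCaP Notch1 against 5.41 and 5.45 in LNCaP GFP, and 7.67 and 7.59 in PC3 Notch1 against 7.81 and 7.84 in PC3 GFP. The groups did not overlap in either line, with gaps of 0.12 and 0.15, and the shift was upward in LNCaP and downward in PC3. Neither passed the test (0.15, 95% interval -0.10 to 0.39, adjusted p = 0.437, in LNCaP and -0.20, 95% interval -0.44 to 0.05, adjusted p = 0.282, in PC3). The Notch1 effects differed by 0.34 (adjusted p = 0.157), which passed only with the log2 5 floor (adjusted p = 0.0226). The floor left that difference unchanged, since 0 arrays lay under log2 5 at this probe set. At 2054_g_at, CDH2 read 1.17 and 1.17 in LNCaP Notch1 against 1.36 and 1.16 in LNCaP GFP, and 3.55 and 3.63 in PC3 Notch1 against 3.09 and 3.86 in PC3 GFP, so that all 8 arrays lay under log2 5 and the groups overlapped in both lines. Its changes were -0.09 in LNCaP (adjusted p = 0.836) and 0.11 in PC3 (adjusted p = 0.753), the PC3 value being 0.50 (adjusted p = 0.0464) without PC3 GFP replicate 2. Among GFP cells CDH2 was lower in LNCaP at both probe sets, by 5.27-fold at 2053_at (log2 -2.40, SE 0.11, adjusted p = 1.41e-08) and by 4.64-fold at 2054_g_at (log2 -2.22, SE 0.21, adjusted p = 4.24e-06), the 2054_g_at value being 0 under the floor.

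VIM (34091_s_at), which encodes the intermediate filament of mesenchymal cells, was high on every array. It read 9.74 and 9.78 in LNCaP Notch1 against 9.65 and 9.70 in LNCaP GFP, and 12.49 and 12.55 in PC3 Notch1 against 12.50 and 12.68 in PC3 GFP. The LNCaP groups were 0.04 apart and the PC3 groups overlapped. The change was 0.08 in LNCaP (95% interval -0.17 to 0.34, adjusted p = 0.711) and -0.07 in PC3 (95% interval -0.33 to 0.19, adjusted p = 0.729).  In GFP cells VIM was 7.55-fold lower in LNCaP (log2 -2.92, SE 0.12, adjusted p = 5.39e-09).

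FN1, the gene of the matrix glycoprotein fibronectin, was read by 3 probe sets. At 31720_s_at it gave 12.40 and 12.38 in LNCaP Notch1 against 10.53 and 10.54 in LNCaP GFP, and 5.76 and 5.73 in PC3 Notch1 against 5.73 and 5.68 in PC3 GFP. At 311_s_at the values were 11.85 and 11.97 in LNCaP Notch1 against 9.75 and 9.90 in LNCaP GFP, and 5.49 and 5.72 in PC3 Notch1 against 5.68 and 5.57 in PC3 GFP. At 31719_at they were 11.74 and 11.66 in LNCaP Notch1 against 9.67 and 9.66 in LNCaP GFP, and 4.38 and 4.49 in PC3 Notch1 against 3.73 and 4.26 in PC3 GFP. LNCaP Notch1 cells thus stood well above LNCaP GFP cells at all 3 probe sets, and every LNCaP array stood above every PC3 array.

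The rise of FN1 in LNCaP was 3.61-fold at 31720_s_at (log2 1.85, SE 0.11, adjusted p = 2.05e-06), 4.24-fold at 311_s_at (log2 2.09, SE 0.13, adjusted p = 2.94e-06) and 4.12-fold at 31719_at (log2 2.04, SE 0.16, adjusted p = 1.31e-05). In PC3 the 3 changes were 0.04 (adjusted p = 0.835), -0.02 (adjusted p = 0.934) and 0.45 (95% interval 0.09 to 0.81, adjusted p = 0.124). The change at 31719_at, the probe set with the lowest PC3 levels, was called when PC3 GFP replicate 2 was left out (0.71, adjusted p = 0.00895), was 0.18 without PC3 GFP replicate 1 and was 0 with the floor. The effect of Notch1 on FN1 was larger in LNCaP than in PC3 at each probe set, by 1.81 (adjusted p = 7.81e-05), 2.11 (adjusted p = 7.82e-05) and 1.59 (adjusted p = 0.00142). Among GFP cells FN1 was higher in LNCaP by 4.83, 4.20 and 5.67 on the log2 scale (adjusted p at most 6.64e-10). The value at 31719_at, where PC3 GFP lay under log2 5, was 4.66 with the floor. The LNCaP rises, the differences between the lines and the differences between GFP cells were called for all 3 FN1 probe sets in every alternative setting.

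The FN1 promoter is shown because FN1 is the mesenchymal member that rose in LNCaP, and because it carries a palindromic cyclic AMP response element. The 250 bases before the start lie at chr2:215436069-215436318 on the minus strand (RefSeq, GRCh38.p14), and the capitals mark TGACGTCA, 183 bases before the start. 
FN1: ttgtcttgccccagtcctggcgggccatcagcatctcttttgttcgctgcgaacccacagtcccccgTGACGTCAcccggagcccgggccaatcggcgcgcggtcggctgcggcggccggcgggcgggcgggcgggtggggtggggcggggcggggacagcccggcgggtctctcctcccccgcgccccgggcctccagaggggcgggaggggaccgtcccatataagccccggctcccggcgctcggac
TGACGTCA, which reads the same on both strands, is in 1.65% of the 35116 windows. This FN1 window held 0 matches to CAGGTG or CACCTG and 0 to TGGGAA or TTCCCA, the core letters bound by the Notch partner CSL, which 20.8% of windows hold.

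**Figure D2:**
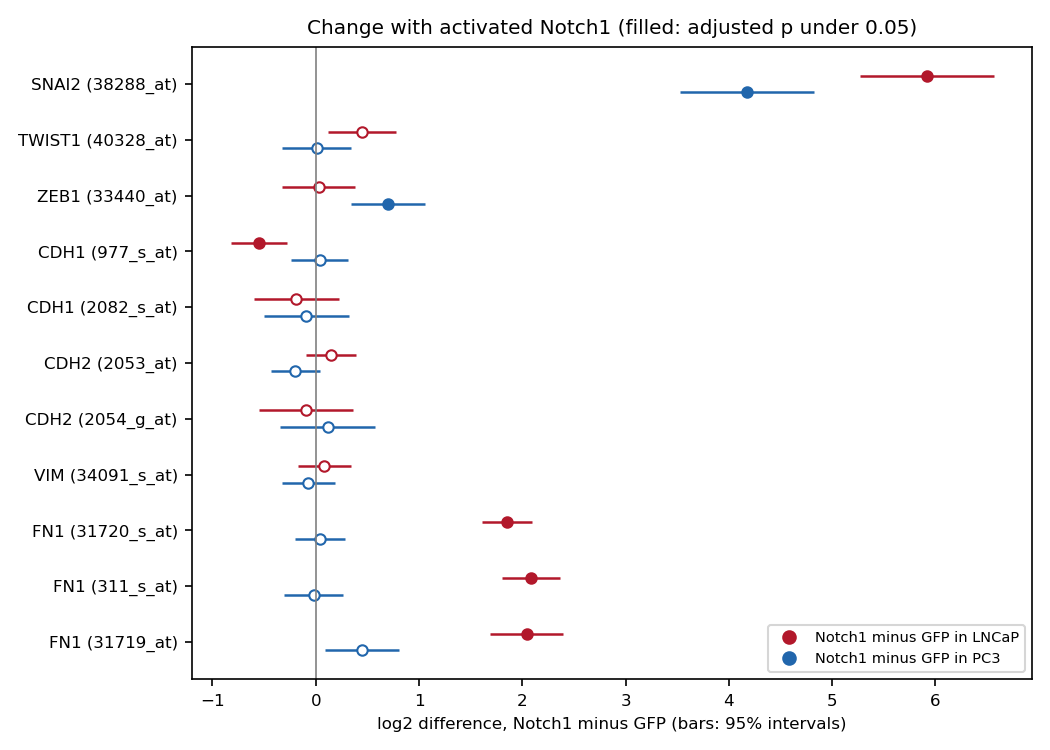
Change with activated Notch1 (x axis, log2 difference Notch1 minus GFP, bars are 95% intervals from the limma fit) at each of the 11 probe sets (y axis) in LNCaP and PC3, filled where the adjusted p was under 0.05. SNAI2 stands at 5.92 in LNCaP and 4.17 in PC3, the 3 FN1 points of LNCaP at 1.85 to 2.09, and CDH1 977_s_at of LNCaP at -0.55.

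Set side by side, the effects of Notch1 in the lines differed at 5 of the 11 probe sets (SNAI2 and the 3 of FN1 more positive in LNCaP, CDH1 977_s_at more negative). Over all probe sets, 14.2% were called for such a difference. The 5 calls came from 3 genes, and only those of FN1 held in every alternative setting. The SNAI2 call was lost in 4 of 13 settings, each leaving out 1 Notch1 array, and the CDH1 call in 7 of 14. At 977_s_at the PC3 levels of CDH1 lay under log2 5. Each comparison within a line used its own GFP arrays, and the 4 groups shared 1 estimate of spread. Under median centring of each array, the share of calls that were more positive in LNCaP was 30.4% over all probe sets, against 45.8% as deposited.

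The GFP cells of the lines differed at most genes of the switch. LNCaP GFP cells had more CDH1 and less CDH2, VIM and ZEB1 than PC3 GFP cells, but also more FN1. Of the 11 probe sets, 9 were called between GFP cells (5 higher and 4 lower in LNCaP), where 58.8% of all probe sets were called (40.3% higher and 18.5% lower). SNAI2 and TWIST1 were the genes not called, and the 9 calls came from the other 5. With the log2 5 floor the ZEB1 and CDH2 2054_g_at differences were 0. The CDH1 2082_s_at call was lost there too (adjusted p = 0.0991), although 0 of its arrays lay under log2 5 and its difference stayed at 0.66. The median difference over all probe sets was 0.22, and it was -0.06 after median centring, when 46.3% of calls were higher in LNCaP against 68.6% as deposited. Both scalings kept the direction of all 9 differences, and the CDH1 2082_s_at call was lost. Joint normalization of the lines is stated in no source, so a comparison of levels across the lines has that limit.

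**Figure D3:**
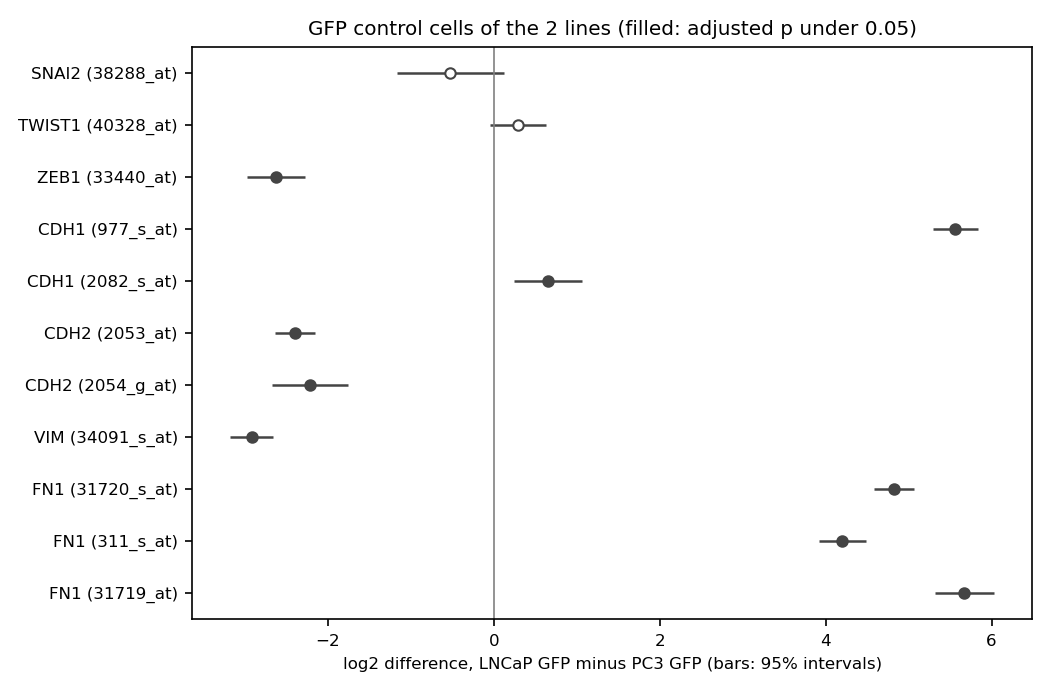
Log2 difference between GFP cells of the lines (x axis, LNCaP GFP minus PC3 GFP, bars are 95% intervals) at each of the 11 probe sets (y axis), filled where the adjusted p was under 0.05. CDH1 and FN1 lie to the right of 0, at up to 5.56 and 5.67 (5.21 and 4.66 at those probe sets with the log2 5 floor). ZEB1, CDH2 and VIM lie to the left, at -2.92 to -2.22, of which ZEB1 and CDH2 2054_g_at were 0 with the floor.

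The order of the 4 groups differed between the genes. SNAI2 means ran 7.13, 5.91, 1.74 and 1.21 in LNCaP Notch1, PC3 Notch1, PC3 GFP and LNCaP GFP, and the 2 GFP groups could not be separated. FN1 at 31720_s_at ran 12.39, 10.53, 5.75 and 5.71 in LNCaP Notch1, LNCaP GFP, PC3 Notch1 and PC3 GFP, the PC3 groups not being separated by the test. For VIM the PC3 groups stood at 12.52 with Notch1 and 12.59 with GFP, above LNCaP at 9.76 with Notch1 and 9.67 with GFP, and only the step between the lines was called.

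Among 1623 probe sets of other genes that spanned at least 2 log2 units, those most like SNAI2 over the 8 arrays were HES1 (Pearson r = 0.977), TFF3 (0.974), TFF1 (0.972), RNF144A (0.968) and ADA (0.963). The nearest to CDH1 were DDC (0.9997), ELF2 (0.9995) and DDX3Y (0.9993). VIM was followed most closely by GJA1 (0.9999), IL13RA2 (0.9997) and CD55 (0.9996), and FN1 by INHBB (0.9981), ACTA2 (0.9981) and NEO1 (0.9980). These are descriptions over 8 arrays that share 2 lines and 4 groups, so any gene with the same step between groups scores high. TFF1 and TFF3, secreted trefoil peptides, averaged 12.13 and 9.90 in LNCaP Notch1 against 6.11 and 6.21 in LNCaP GFP, and 11.98 and 8.89 in PC3 Notch1 against 7.29 and 6.93 in PC3 GFP.

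Of 9 other transcription factors of the transition that were measured, 0 were called in LNCaP, and 1 rose and 1 fell in PC3, namely SOX9, a neural crest and progenitor factor (2.03-fold, adjusted p = 0.00059), and HMGA2, a chromatin architectural protein (1.69-fold lower, adjusted p = 0.0106). Their median change was -0.02 in LNCaP and -0.18 in PC3. For comparison with each list, 8.01% of all probe sets were called higher and 9.32% lower in LNCaP, with a median of 0.04. In PC3 the shares were 4.19% higher and 2.01% lower, with a median of -0.08. Of 10 other cadherins, 0 were called in LNCaP and 1, CDH8, fell in PC3 (log2 -0.48, adjusted p = 0.0487), a call lost in 13 settings. Between GFP cells, 2 of the 10 were called higher and 2 lower in LNCaP, where 40.3% of all probe sets were called higher and 18.5% lower. The lower 2 were the classical cadherins CDH3 and CDH11, averaging 4.10 and 2.46 in LNCaP GFP against 7.47 and 7.83 in PC3 GFP. Of 14 catenins and adherens junction partners, 1 fell in LNCaP, the neural alpha-catenin CTNNA2 (1.73-fold lower, adjusted p = 0.00603), and 2 rose in PC3, NECTIN3 (2.04-fold, adjusted p = 0.00108) and the actin linker VCL (log2 0.58, adjusted p = 0.0268). The calls of HMGA2, CTNNA2 and VCL were lost with the log2 5 floor and on leaving out some arrays. The floor left the changes of HMGA2 (-0.76) and VCL (0.58) as they were, and only their adjusted p moved (0.0843 and 0.0922). The change of CTNNA2 was -0.14 with the floor.

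Among 24 other epithelial genes, 8 fell and 2 rose in LNCaP, and 2 fell and 1 rose in PC3, with medians of -0.03 and -0.19. Over all probe sets, 9.32% fell and 8.01% rose in LNCaP, and 2.01% fell and 4.19% rose in PC3. The tight junction claudins led the falls in LNCaP, CLDN3 (2.57-fold lower), CLDN4 (2.24-fold lower) and CLDN7 (2.09-fold lower), while the desmosomal genes DSP (2.26-fold) and DSG2 (1.52-fold) rose. Desmosomal genes did not move one way, since PKP3 fell (log2 -0.94, adjusted p = 0.00117) and PKP1, PKP2 and DSC2 were not called in LNCaP. In PC3, CLDN4 (1.91-fold lower) and CLDN3 (1.58-fold lower) fell, and the desmosomal plaque gene PKP2 rose 5.47-fold at levels below log2 5 (4.63 with Notch1 against 2.18 with GFP), a difference of 0 with the floor. Among 33 other mesenchymal genes, 5 rose and 3 fell in LNCaP, and 5 rose and 1 fell in PC3, with medians of 0.13 and -0.17. The matrix protein gene SPARC rose in both lines (2.50-fold in LNCaP, 2.94-fold in PC3). WNT5A, a secreted Wnt ligand (4.16-fold), and ACTA2, smooth muscle actin (2.42-fold), rose in LNCaP, where the actin-binding CALD1 fell (1.98-fold lower). In PC3, TNC (2.50-fold) and CD44 (1.88-fold) rose and the collagen gene COL5A2 fell (4.57-fold lower). The PC3 calls of CLDN3 and TNC were lost with the floor, as adjusted p = 0.12 and 0.101, and on leaving out some PC3 arrays. Their PC3 means lay above log2 5, and the floor left the changes at -0.66 and 1.32.

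**Figure D4:**
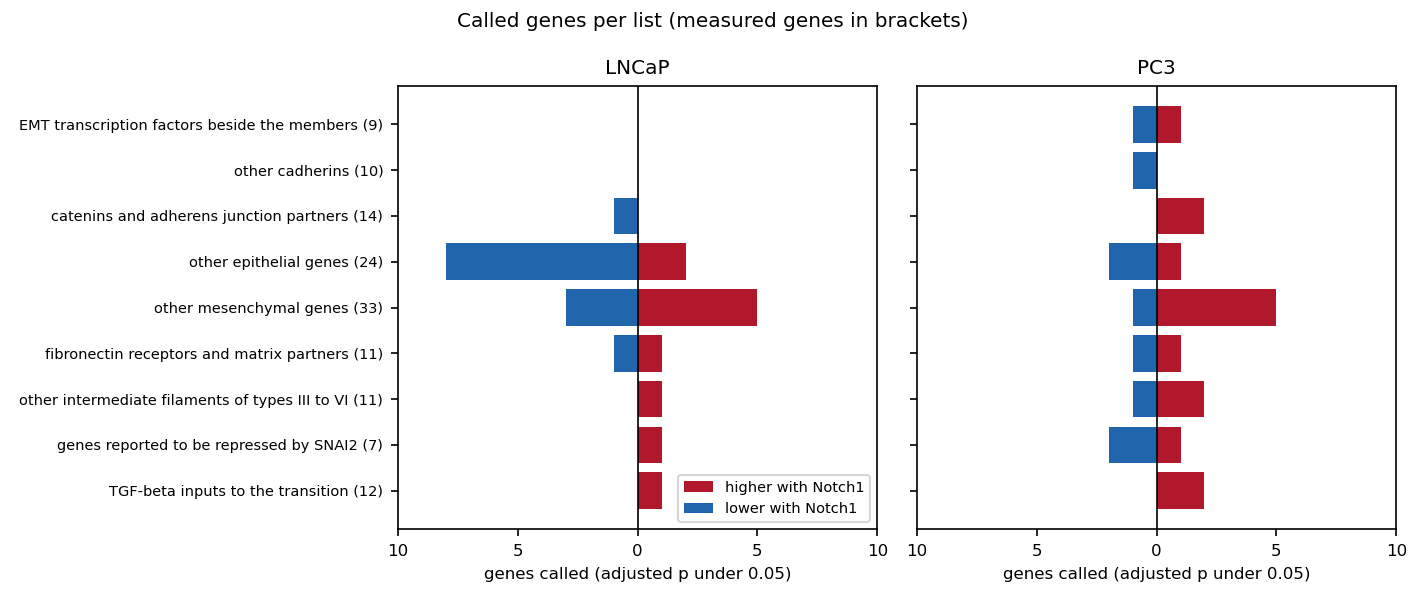
Number of genes called (x axis) higher or lower with Notch1 in each gene list (y axis, measured genes in brackets), LNCaP on the left and PC3 on the right, each gene read at its probe set with the highest mean. The other epithelial genes had 8 lower and 2 higher of 24 in LNCaP, and no other list had more than 5 calls in 1 direction. Over all probe sets, 8.01% were called higher and 9.32% lower in LNCaP, and 4.19% and 2.01% in PC3.

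Of 11 fibronectin receptors and matrix partners of FN1, 1 rose and 1 fell in each line, LTBP1 (3.46 with Notch1 against 2.83 with GFP, both under log2 5 and 0 apart with the floor) and SDC4 (1.51-fold lower) in LNCaP, and ITGA3 (1.53-fold) and LTBP1 (1.62-fold lower) in PC3. Of 11 other intermediate filament genes beside VIM, 1 rose in LNCaP, the nuclear lamin LMNB1 (2.68-fold), and in PC3 the neurofilament gene NEFL (3.18-fold) and SYNM (4.72 with Notch1 against 3.65 with GFP, 0 apart with the floor) rose while LMNB1 fell (1.60-fold lower). Of 7 genes reported elsewhere to be repressed by SNAI2, DSP rose and 0 fell in LNCaP, while in PC3 ITGA3 rose and ITGB4 (2.85-fold lower) and ESR1 (1.42-fold lower) fell. A further ITGB4 probe set gave -0.20 in PC3 (adjusted p = 0.349), and the ESR1 call was lost in 11 settings. Of 12 TGF-beta inputs to the transition, SMAD3 rose in LNCaP (1.61-fold) and in PC3 (2.88-fold), and SMAD2 rose in PC3 (1.82-fold). The calls of LTBP1, ITGA3, SDC4, SYNM, LMNB1 in PC3 and SMAD3 in LNCaP were each lost in 1 to 7 settings. Beside these counts, 8.01% of all probe sets rose and 9.32% fell in LNCaP, and 4.19% rose and 2.01% fell in PC3.

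Markers of the lines themselves moved beside the falls and rises in LNCaP. Of 5 measured LNCaP markers, 4 fell with Notch1 in LNCaP, led by ACP3 (3.75-fold lower) and KLK2 (2.85-fold lower), and their mean level was 8.10 to 8.24 in LNCaP Notch1 against 9.19 to 9.24 in LNCaP GFP. Of 8 PC3 markers, 2 rose in LNCaP, ANXA1 (9.45-fold) and EGFR (1.47-fold), with a mean level of 5.18 to 5.22 in LNCaP Notch1 against 4.65 to 4.72 in LNCaP GFP, while CAV1 and CAV2 stayed under log2 5 there. In PC3, 4 of the 8 rose, led by CAV2 (2.43-fold), and the EGFR call in LNCaP was lost in 6 settings. The CAV2 call was lost with the floor, where its log2 change stayed at 1.28. Over all probe sets, 8.01% rose and 9.32% fell in LNCaP, and 4.19% rose and 2.01% fell in PC3. Of 7 fibroblast markers, 0 were called in either line, with means of 5.34 to 5.35 in LNCaP Notch1 against 5.19 to 5.23 in LNCaP GFP. Of 7 leukocyte markers, 0 were called in LNCaP and 1 fell in PC3, ITGB2 (3.59 with Notch1 against 4.11 with GFP, 0 apart with the floor). Of 5 endothelium markers, 0 were called in PC3 and 1 rose in LNCaP, TEK (1.85-fold, adjusted p = 0.00109). A further TEK probe set rose by 3.23 in LNCaP (adjusted p = 7.39e-07). Other probe sets of the same genes did not always follow: in PC3, those of HMGA2, TNC, NEFL and CAV2 gave -0.22, 0.29, 0.23 and -0.10 and were not called, and 2 of 6 of CD44 were called. The part of the line markers in the CDH1 and FN1 results was not tested, and in bulk RNA fewer cells of a type and less RNA per cell cannot be told apart.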

How the data were processed

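RNA of LNCaP and PC3 cells with activated Notch1 or GFP was hybridized to 8 arrays. Per the labels and methods, the authors summarised the raw arrays with RMA and then used limma (tool versions not given in the sources used here). Deposited log2 values, 1 per probe set and array, were analysed as they stood. Of 12625 probe sets, 67 controls were left out. The platform annotation gave 10943 of the rest 1 gene symbol, 545 several and 1070 none. With limma 3.58.1 in R 4.3.3, a mean for each of 4 groups was fitted to all 8 arrays (4 residual and 6.37 prior degrees of freedom), followed by moderated two-sided tests of 4 contrasts and Benjamini-Hochberg adjustment over 12558 probe sets. The fit was tested on simulated data. Every probe set of the 7 genes is reported whatever its test. HES1 was the check of activation, and from each gene list up to 3 called genes per direction and line are named, each at its probe set with the highest mean. The members and lists were chosen with earlier results of these data known. CDH3 and CDH11 between GFP cells, PKP1, PKP3 and DSC2, TFF1 and TFF3, and the other ITGB4 probe set were chosen after their values were seen. Alternatives were other scalings, a log2 5 floor, a percentile filter, an eBayes trend, a replicate block, fits to fewer arrays and leaving out each array. The number of arrays limits the precision.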

Additional observations from a re-analysis of the deposited data

Results flagged for a closer look

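Groups of 2 arrays were not checked for an array far from the others. The results below differed between LNCaP and PC3 in their response to Notch1, by the test of the difference itself. Each value is the LNCaP effect minus the PC3 effect on the log2 scale.

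Among the switch genes, the difference was 1.75 for SNAI2 (adjusted p = 0.0192), and it was 2.11 at 311_s_at (adjusted p = 7.82e-05), 1.81 at 31720_s_at (adjusted p = 7.81e-05) and 1.59 at 31719_at (adjusted p = 0.00142) for FN1. CDH1 at 977_s_at differed by -0.59 (adjusted p = 0.0486). For SNAI2 the effects themselves were 5.92 in LNCaP and 4.17 in PC3, so the lines differed in the size of a rise that both had. For FN1 and CDH1 the PC3 effects missed the threshold. The SNAI2 difference lost its call in 4 of 13 alternative settings and the CDH1 difference in 7 of 14, while the FN1 differences kept theirs in all.

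More positive in LNCaP were ANXA1 (3.08), WNT5A (2.10), LMNB1 (2.10), ITGB4 (1.77), COL5A2 (1.55), ACTA2 (1.53), LTBP1 (1.33), TEK (1.13), DSP (0.99), ITGB2 (0.71), HMGA2 (0.70) and ESR1 (0.63). LMNB1 rose in LNCaP and fell in PC3. LTBP1 was called in the same directions, but both of its LNCaP groups lay under log2 5 and its LNCaP change was 0 with the log2 5 floor. ITGB2 had group means of 3.59 to 4.11, and its PC3 change was 0 with the floor. COL5A2 fell in both lines, by 0.65 in LNCaP and by 2.19 in PC3.

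More negative in LNCaP were PKP2 (-2.38), NEFL (-1.97), ACP3 (-1.58), SYNM (-1.52), KLK2 (-1.37), CAV2 (-1.30), CALD1 (-1.26), CLDN7 (-1.19), SOX9 (-1.04), CD44 (-0.92), SMAD3 (-0.84), COL6A1 (-0.83), NECTIN3 (-0.81), TMPRSS2 (-0.72), CLDN3 (-0.70) and VCL (-0.69). SMAD3 rose in both lines, and CLDN3 fell in both.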

How the results depend on the processing

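The SNAI2 rises in both lines, the FN1 rises in LNCaP and the VIM and CDH1 977_s_at differences between GFP cells kept their direction and their call in every alternative run. Over the 11 probe sets and 4 comparisons, 578 of the alternative values kept direction and side of the threshold, 28 lost a call, 12 gained one and 19 changed sign. Of the named list genes, 602 values kept their call and 99 lost it.

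The sign changes were all in values that missed the threshold. Without each array in turn, SNAI2 between GFP cells ran from -1.08 to 0.0299, TWIST1 in PC3 from -0.14 to 0.17, CDH1 977_s_at in PC3 from -0.0585 to 0.14 and VIM in PC3 from -0.16 to 0.0222. CDH1 2082_s_at ran from -0.40 to 0.21 in PC3 and from -0.40 to 0.21 for the difference between the lines. CDH2 2054_g_at ran from -0.27 to 0.50 in PC3, from -0.19 to 0.00523 in LNCaP and from -0.59 to 0.18 for the difference. FN1 311_s_at in PC3 ran from -0.14 to 0.0984, and gave 0.0174 with median centring and 0.0353 with quantile normalization. ZEB1 in LNCaP gave -0.0307 with median centring and -0.00381 with quantile normalization.

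Counts of called probe sets were 779 in PC3, 2176 in LNCaP, 1778 for the difference and 7386 between GFP cells. With the log2 5 floor they were 347, 1415, 1063 and 4805, where raised values have no spread. Some probe sets above log2 5, such as those of HMGA2 and VCL in PC3, lost a call there at an unchanged log2 difference. A fit to PC3 arrays alone called 470 in PC3. Without each array in turn they ran from 251 to 1694 in PC3, from 1329 to 2546 in LNCaP, from 950 to 2664 for the difference and from 6344 to 7291 between GFP cells. The difference uses all arrays, so a fit to fewer gave no value for it. The cause of these shifts was not tested.

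All groups carry replicate numbers 1 and 2. Replicate 1 arrays deviated from their means alike, with r of 0.124 to 0.545 in 6 pairs of groups, but each comparison has only 2 pairs and no source says what a number marks. With the replicate number as a block, 1507 probe sets were called in PC3, 2871 in LNCaP, 2879 for the difference and 8043 between GFP cells. Among the switch genes the block changed 1 call, the ZEB1 difference between the lines of -0.67, which passed (adjusted p = 0.0361).

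Levels under log2 5 limit SNAI2 in GFP cells, ZEB1, CDH2 2054_g_at, CDH1 977_s_at and FN1 31719_at in PC3. They also limit such list genes as PKP2, SYNM, CDH8 and ITGB2 in PC3 and LTBP1 and CTNNA2 in LNCaP.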
